A study of Rattus norvegicus with 6 samples.

Results

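The annexins are a family of calcium-dependent phospholipid-binding proteins, and 8 of their genes were examined here in the spinal cord of rats with bone cancer pain (BCP). The genes were Anxa1, Anxa2, Anxa3, Anxa4, Anxa5, Anxa6, Anxa7 and Anxa11, found by their symbols among the 30957 rows of the gene table. The list was chosen by gene family with results of these data known, and Anxa3 was selected on the same counts, for the difference between the groups in its own count and in those of the long noncoding RNAs (lncRNAs) beside it, so its values are given as a description with no test. The BCP group had 3 libraries from female Wistar rats that carried living Walker 256 cells, a rat mammary carcinoma line, in the medullary cavity of the left tibia. The sham group had 3 libraries from rats of the same strain that had received heat-killed cells of that line, so both groups underwent the injection and were exposed to tumor cell material. The tissue in both groups was the lumbar enlargement on the injected side, split lengthwise and taken without its meninges on day 14. The rats were adults, and their exact age is not given in the sources used here. The living cells had been grown as ascites in other Wistar rats before they were injected. The labels do not say whether each library came from a separate animal, so the p-values measure only the spread between these samples, which may be technical.

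Annexins bind negatively charged phospholipids, phosphatidylserine among them, when calcium rises, and they take part in membrane repair, exocytosis, endocytosis and the handling of dying cells. Several of them form complexes with small calcium-binding proteins of the S100 family. Anxa1 is also a secreted ligand of formyl peptide receptors with anti-inflammatory actions, and it is known for its induction by glucocorticoids. In the gene ontology terms that stood beside the genes in the deposited table, all 8 genes carried the term phospholipid binding, which 265 of 13335 annotated tested genes (1.99%) carried. The narrower term calcium-dependent phospholipid binding was carried by the same genes other than Anxa11, and by 32 tested genes (0.240%) in all. Anxa1, Anxa2 and Anxa3 were the 3 tested genes with the term phospholipase A2 inhibitor activity. Anxa1, Anxa3 and Anxa11 carried phagocytosis, and Anxa1 and Anxa3 carried response to glucocorticoid.

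The sequences just upstream of Anxa3 and Anxa1, the members with the largest differences between the groups, are shown with that of Anxa2, whose level did not pass the test. Each is the 250 bases before the gene's start from RefSeq on GRCr8, a newer build than the Rnor_6.0 of the deposited coordinates, at chr14:13085598-13085847 on the minus strand for Anxa3, chr1:227303733-227303982 on the minus strand for Anxa1 and chr8:78986002-78986251 on the plus strand for Anxa2. The capitals mark matches to GAGGAA (a core bound by PU.1, a myeloid transcription factor), TGANTCA (the AP-1 motif) and TATAAA (the TATA box), and none of these marked matches overlap.
Anxa3: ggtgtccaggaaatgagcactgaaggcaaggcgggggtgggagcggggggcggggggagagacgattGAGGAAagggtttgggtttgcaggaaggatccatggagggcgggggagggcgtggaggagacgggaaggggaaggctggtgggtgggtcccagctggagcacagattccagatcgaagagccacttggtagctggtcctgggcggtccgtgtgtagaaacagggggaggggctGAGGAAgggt
Anxa1: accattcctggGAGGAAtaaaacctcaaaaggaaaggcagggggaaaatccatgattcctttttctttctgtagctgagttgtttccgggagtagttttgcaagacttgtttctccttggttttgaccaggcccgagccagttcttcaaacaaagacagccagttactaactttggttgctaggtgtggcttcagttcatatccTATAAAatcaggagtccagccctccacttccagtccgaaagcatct
Anxa2: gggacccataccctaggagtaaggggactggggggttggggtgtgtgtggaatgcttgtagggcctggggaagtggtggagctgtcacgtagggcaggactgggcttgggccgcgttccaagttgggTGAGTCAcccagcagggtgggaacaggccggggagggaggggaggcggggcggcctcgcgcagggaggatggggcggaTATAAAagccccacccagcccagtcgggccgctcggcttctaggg
RefSeq upstream sequences were found for 7 of the 8 genes, Anxa6 being the exception. On either strand GAGGAA occurred 2 times upstream of Anxa3, 1 time upstream of Anxa1 and 1 time upstream of Anxa7, and 23.3% of the 33469 upstream sequences of the same length held it. TATAAA occurred upstream of Anxa1 and Anxa2 and in 12.9% of all sequences, and TGANTCA occurred upstream of Anxa2 and in 6.34%. The interferon-regulatory factor motif (GAAA, any 2 bases, then GAAA; 3.41% of all sequences), the STAT motif TTCNNNGAA (7.67%) and the glucocorticoid receptor motif TGTTCT (17.5%) had no match in the 7 sequences. The G and C content was 64% for Anxa3, 45.2% for Anxa1 and 67.2% for Anxa2, beside a median of 51.2% over all sequences. These matches describe letters only and were not tested as binding sites.

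The libraries held 11779485 to 15004290 counts on genes and 1946315 to 2531114 counts on lncRNAs, and 14908 genes and 12157 lncRNAs passed the filter on low counts. A gene was called when its adjusted p-value was under 0.05 and its log2 fold change (BCP minus sham) was beyond 1 in either direction. Among all tested genes 6.35% were called higher and 0.107% lower in BCP, and the median log2 fold change was -0.01. Neuronal markers were abundant in all libraries, as the labelled tissue has them. Of these, Rbfox3 was lower in BCP, with a log2 fold change of -0.34, short of the fold threshold. Its adjusted p was 0.00134 by edgeR's quasi-likelihood test. Syt1, Gad1, Slc17a6 and Snap25 did not pass the test. The summed markers of meninges and fibroblasts were at 64.7 to 96.5 CPM in sham and 61.9 to 123.8 CPM in BCP, with Col1a2 at 0 and Col1a1, Dcn, Lum and Igf2 detected in all libraries. Igf2 was lower in BCP, with a log2 fold change of -0.94 and an adjusted p = 8.66e-05 by edgeR's quasi-likelihood test. It stayed short of the fold threshold. Col1a1, Dcn and Lum did not pass the test. Col1a1 was at 84.1 CPM in BCP library 1, against 33.0 and 26.5 CPM in BCP libraries 2 and 3. Of the microglial markers (Aif1, Cx3cr1, P2ry12, Tmem119, Csf1r, Itgam), 4 of 6 were called higher in BCP, and their summed level was 180.2 to 233.3 CPM (counts scaled to a common library size) in sham and 539.9 to 651.2 CPM in BCP. Of the T cell markers 5 of 5 were called higher, from a summed 0.140 to 0.458 CPM to 15.7 to 24.2 CPM. All 5 passed the low-count filter through their BCP libraries. Both tested markers of red blood cells, Hbb and Alas2, were called higher, from a summed 23.1 to 24.8 CPM to 54.7 to 69.1 CPM. Of the 5 astrocyte markers none was called. Gfap was 1.74-fold higher, with an adjusted p = 5.27e-05 by edgeR's quasi-likelihood test and short of the fold threshold. Aldh1l1 was lower, with a log2 fold change of -0.26 and an adjusted p = 0.01225. Slc1a3, Aqp4 and Gja1 did not pass the test, and Aqp4 was far higher in BCP library 1 than in BCP libraries 2 and 3. The summed oligodendrocyte markers were lower in BCP, and all 5 had an adjusted p-value under 0.05 without reaching the fold threshold. In a bulk sample, fewer cells of a type and less RNA per cell cannot be told apart.

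Of the 8 annexin genes, 2 were called higher in BCP, Anxa3 by the choice of the list and Anxa1, and none was called lower. Without Anxa3, 1 of 7 was called higher, beside 6.35% of all tested genes, and none lower, beside 0.107%. Without the fold threshold, the adjusted p-value of edgeR's quasi-likelihood test was under 0.05 and the level higher in BCP for 5 of 8 genes, or 4 of 7 without Anxa3 (Anxa1, Anxa4, Anxa7 and Anxa11), beside 15.8% of all tested genes, and lower for none, beside 12.1%. The BCP libraries lay wholly above the sham libraries for 5 genes, and the groups overlapped for Anxa2, Anxa5 and Anxa6. Among all tested genes, BCP lay wholly above sham for 21.7% and wholly below for 19.8%. The median log2 fold change was 0.28 over the 8 genes and 0.25 over the 7 without Anxa3. Anxa1 entered the test through the group in which it was higher, so these counts and medians are a description.

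**Figure D1:**
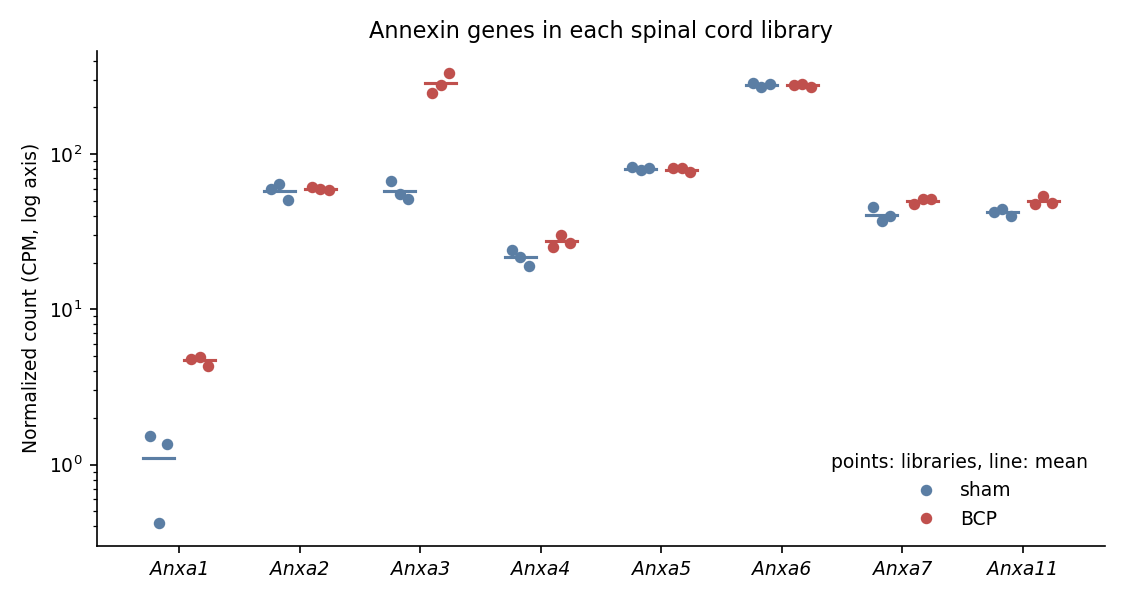
Normalized count (CPM, log axis) of each annexin gene in the 3 sham and 3 BCP libraries, with points for libraries and lines for group means. Anxa3 is at 51.7 to 67.3 CPM in sham and 247 to 332 CPM in BCP, and Anxa1 at 0.419 to 1.53 CPM in sham and 4.32 to 4.93 CPM in BCP, whereas the points of Anxa2, Anxa5 and Anxa6 overlap.

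Anxa3 lies on chromosome 14 (14364008 to 14426437, Rnor_6.0) and encodes an annexin known from neutrophils and other phagocytes and from migrating endothelial cells. Its counts were 883, 794 and 765 in the sham libraries, taken in the order 1, 2, 3 throughout, and 2923, 3887 and 4381 in the BCP libraries. Normalized, these were 67.3, 55.5 and 51.7 CPM in sham and 247, 278 and 332 CPM in BCP. The lowest BCP library was well above the highest sham library. The mean was 58.2 ± 8.17 CPM (SD, n = 3) in sham and 286 ± 42.8 CPM (SD, n = 3) in BCP, a ratio of 4.91, and the fitted log2 fold change was 2.30. Omitting one library at a time gave values between 2.18 and 2.41.

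Since 4 of the 6 microglial markers were called higher as well, the level of Anxa3 is given beside theirs. Anxa3 amounted to 28.87, 25.01 and 28.68% of the summed CPM of the 6 microglial markers in sham and to 45.8, 49.5 and 50.9% in BCP. The share was thus higher in every BCP library than in any sham library, but it depends on which markers are summed. Among the 6 markers the fitted folds ran from 1.14 for Tmem119 to 5.28 for Aif1, and that of Anxa3 was 4.92. Of the endothelial markers, 4 were tested and none was called, beside 6.35% of all tested genes called higher and 0.107% lower. The summed endothelial markers were at 270.2 to 280.5 CPM in sham and 266.7 to 268.6 CPM in BCP. Of the 6 neutrophil markers, only S100a8 passed the low-count filter, through its BCP libraries, with 1, 0 and 0 counts in sham and 23, 15 and 10 in BCP. The summed neutrophil markers were at 0.153 to 0.743 CPM in sham and 2.12 to 5.41 CPM in BCP. Of the markers of perivascular and blood-derived macrophages none of 3 tested was called, beside the same shares of all tested genes. Their summed level was 12.4 to 16.4 CPM in sham and 11.9 to 15.8 CPM in BCP. With so few markers, counts of none called are near these shares. The part of these cell types in the difference of Anxa3 was not tested.

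The 5 genes whose log2 CPM followed that of Anxa3 most closely over the 6 libraries, each centred on its own mean, were Itgb2, Fgd2, Ercc6l, Ifi30 and Lyn. The root mean square difference from Anxa3 was 0.0506 for Itgb2, the common beta chain of leukocyte integrins, and 0.0802 for Lyn, a Src-family kinase of leukocytes. Itgb2 was at 15.3, 12.2 and 10.9 CPM in sham and 53.3, 60.7 and 67.6 CPM in BCP, and its order over the libraries was that of Anxa3. This measure contains the difference between the groups, and the likeness was not tested.

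Inside the span of Anxa3 lay 2 lncRNAs, for whose differences Anxa3 was put on the list, so they too are described without a test. MSTRG.9517.1, a transcript of the authors' own assembly, is 4004 bases long and lies on chromosome 14 at 14418356 to 14422468, from 54.35 to 58.46 kb of the 62.43 kb span of Anxa3. Its counts were 85, 96 and 84 in sham and 329, 449 and 470 in BCP, or 39.7, 41.9 and 34.7 CPM and 171, 206.0 and 224.5 CPM of the lncRNA table, and its log2 fold change was 2.37. NONRATT009768.2, 672 bases long at 14386407 to 14387078, had 8, 6 and 7 counts in sham and 30, 50 and 25 in BCP, and its log2 fold change was 2.44. It passed the low-count filter through its BCP libraries. Neither lncRNA's groups overlapped, but both had been selected for a difference between the groups. The count of MSTRG.9517.1 was 9.63 to 12.1% of that of Anxa3 in sham and 10.7 to 11.6% in BCP, so its ratio to Anxa3 overlapped between the groups. That of NONRATT009768.2 was 0.756 to 0.915% in sham and 0.571 to 1.29% in BCP, and it overlapped as well. The files give no strand for the transcripts and the use of strand in counting is not given in the sources used here, so reads of these lncRNAs and of Anxa3 cannot be told apart.

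**Figure D2:**
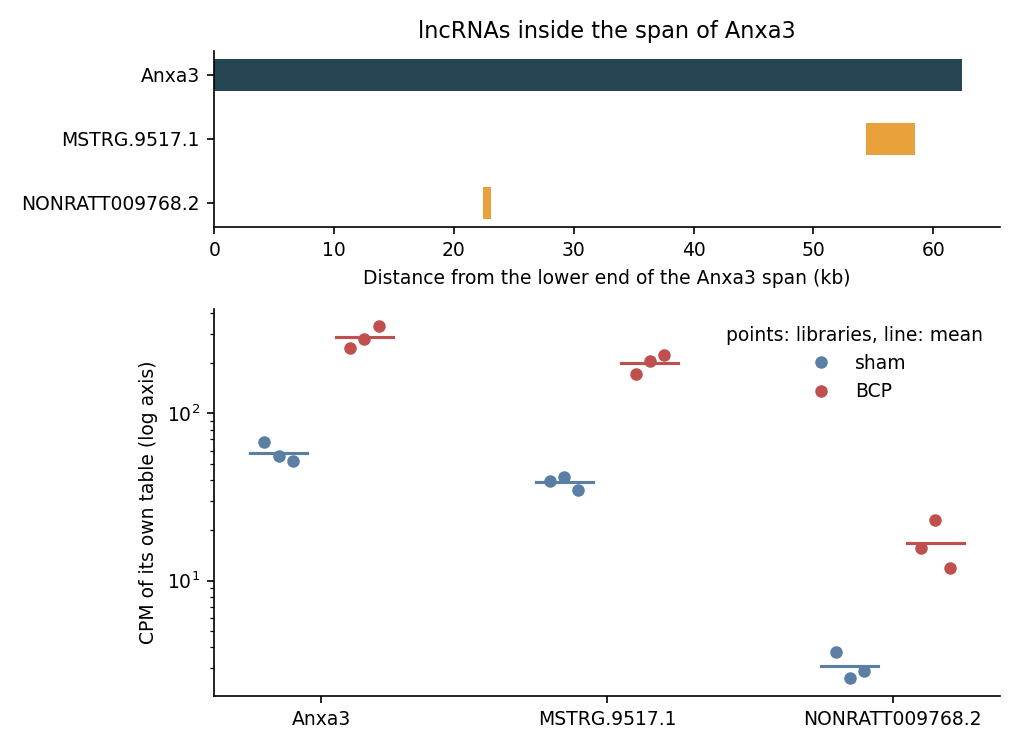
Position of the lncRNAs MSTRG.9517.1 and NONRATT009768.2 along the span of Anxa3 (distance from its lower end in kb), with the levels of all 3 in each library. Levels are on a log axis, with points for libraries and lines for group means. They are CPM of the gene table for Anxa3 and of the lncRNA table for the lncRNAs, so they cannot be compared between the tables. Both lncRNAs lie inside the 62.43 kb span, and for both the 3 BCP libraries sit above the 3 sham libraries.

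The nearest gene beyond Anxa3 did not rise with it. Fras1, which encodes an extracellular matrix protein of basement membranes, begins 12645 bases away. It was at 42.3, 46.7 and 47.5 CPM in sham and at 38.6, 38.8 and 36.1 CPM in BCP, with every BCP library below every sham library. Its log2 fold change was -0.27 ± 0.08 (SE), with an adjusted p = 0.0119 by edgeR's quasi-likelihood test, short of the fold threshold. Fras1 and the other genes within 20 kb were looked up after values had been seen.

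Anxa1 lies on chromosome 1 (237893966 to 237910012, Rnor_6.0). Its counts were low, 20, 6 and 20 in sham and 57, 69 and 57 in BCP. The exact Poisson 95% interval, which covers counting error only, reached 30.9 for the highest sham counts and began at 43.2 for the lowest BCP counts. Normalized, Anxa1 was at 1.53, 0.419 and 1.35 CPM in sham and 4.82, 4.93 and 4.32 CPM in BCP, and the groups did not overlap. The mean was 1.099 ± 0.595 CPM (SD, n = 3) in sham and 4.69 ± 0.327 CPM (SD, n = 3) in BCP. The log2 fold change was 2.09 ± 0.31 (SE), a 4.27-fold difference with a 95% interval of 2.71 to 6.73, and edgeR's quasi-likelihood test gave an adjusted p = 3.72e-05.

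The call of Anxa1 held whichever library was omitted, with a log2 fold change of 1.70 without sham library 2, the lowest, and of up to 2.38. The gene passed the low-count filter through its BCP libraries. Without any filter on low counts its log2 fold change was 2.09 and its adjusted p 3.64e-06. As a share of the summed microglial markers, Anxa1 was at 0.654, 0.189 and 0.750% in sham and 0.893, 0.879 and 0.663% in BCP, and these ranges overlapped. The part of the microglia and T cells in the difference of Anxa1 was not tested. The genes whose pattern was closest to that of Anxa1 were C5ar1, the receptor of complement C5a, and Apobec1, Timp1, Gzmm and Cd40. C5ar1 was at 2.67, 1.26 and 1.82 CPM in sham and 8.71, 9.004 and 8.25 CPM in BCP, with a root mean square difference of 0.268 from Anxa1, wider than that of any gene named beside Anxa3.

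Anxa7, Anxa4 and Anxa11 were higher in BCP by smaller amounts, with folds of 1.24 for Anxa7, 1.26 for Anxa4 and 1.19 for Anxa11. Anxa7 (chromosome 15, 4254499 to 4281287), or synexin, is known for promoting the fusion of secretory granules. It was at 45.5, 37.0 and 39.7 CPM in sham and at 47.7, 51.7 and 51.2 CPM in BCP. The groups were separate, though only narrowly so between sham library 1 and BCP library 1. The log2 fold change was 0.30 ± 0.08 (SE), and the adjusted p of edgeR's quasi-likelihood test was 0.00746. Without sham library 2 the log2 fold change was 0.24 and the adjusted p 0.0552.

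Anxa4 (chromosome 4, 118538777 to 118595580) is an annexin of secretory epithelia and other cells with regulated exocytosis. It was at 24.3, 21.9 and 19.1 CPM in sham and at 25.3, 30.2 and 26.7 CPM in BCP, again with no overlap. The log2 fold change was 0.34 ± 0.10 (SE), and the adjusted p of edgeR's quasi-likelihood test was 0.018. Without sham library 2 the log2 fold change was also 0.34 and the adjusted p 0.0511. That fold change was 0.25 on the log2 scale without sham library 3 (adjusted p = 0.109) and 0.26 without BCP library 2 (adjusted p = 0.1097).

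Anxa11 (chromosome 16, 3867208 to 3912148) tethers RNA granules to lysosomes, and its variants cause amyotrophic lateral sclerosis. It was at 42.2, 44.1 and 39.9 CPM in sham and at 47.8, 53.8 and 48.5 CPM in BCP, with no overlap. The log2 fold change was 0.25 ± 0.08 (SE), and the adjusted p of edgeR's quasi-likelihood test was 0.0157. It was 0.0786 without sham library 3 and 0.105 without BCP library 2.

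Anxa2, Anxa5 and Anxa6, with the highest FPKM among the annexins of the sham cord, did not pass the test. Anxa2 (chromosome 8, 75687100 to 75723594), the partner of S100a10 in a complex that binds plasminogen and its activator at the cell surface, was at 59.2, 63.9 and 51.0 CPM in sham and 61.8, 59.2 and 58.5 CPM in BCP. Its log2 fold change was 0.05 with a 95% interval of -0.11 to 0.21 and an adjusted p = 0.714 by edgeR's quasi-likelihood test. The interval leaves out a difference of the size of those of Anxa1 or Anxa3.

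Anxa5 (chromosome 2, 123162461 to 123193130), widely used as a probe of phosphatidylserine on dying cells, was at 82.0, 78.6 and 81.3 CPM in sham and 81.0, 81.4 and 76.2 CPM in BCP. The log2 fold change of Anxa5 was -0.02 with a 95% interval of -0.14 to 0.10. Anxa6 (chromosome 10, 40320581 to 40375605), whose core of annexin repeats is duplicated and which acts at the plasma membrane and endosomes, was at 286.7, 269.7 and 283.7 CPM in sham and 277.2, 284.1 and 272.4 CPM in BCP. That of Anxa6 was -0.01 with a 95% interval of -0.10 to 0.08. The signs of both turned when only library size was used for scaling, to 0.02 for Anxa5 and 0.03 for Anxa6, so no direction can be given.

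**Figure D3:**
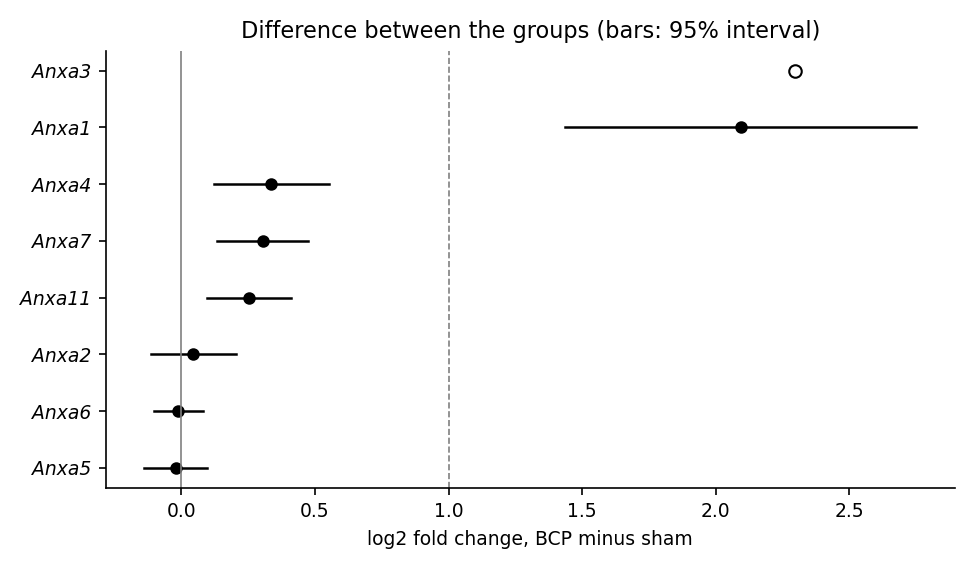
Log2 fold change (BCP minus sham) of each annexin gene with bars for the 95% interval, no bar for Anxa3, and a dashed line at the fold threshold of 1. Anxa3 at 2.30 and Anxa1 at 2.09 lie beyond the line, while the other 6 genes lie between -0.02 and 0.34.

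Levels were compared between the genes on the authors' FPKM scale (fragments per kilobase of transcript, scaled to library size), which allows for transcript length. In sham, Anxa6 was highest at 105.1 ± 3.10 FPKM (SD, n = 3), followed by Anxa5 at 51.5 ± 0.974 FPKM, Anxa2 at 41.5 ± 4.72 FPKM and Anxa7 at 21.6 ± 2.22 FPKM. Anxa11 at 17.3 ± 0.869 FPKM and Anxa3 at 14.3 ± 1.96 FPKM came next. Their libraries, 16.5 to 18.2 FPKM and 12.7 to 16.5 FPKM, were the only neighbours in the order that overlapped. Anxa4 was at 9.73 ± 1.12 FPKM and Anxa1 at 0.764 ± 0.412 FPKM.

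In BCP, Anxa3 at 72.2 ± 11.3 FPKM (SD, n = 3) stood second, below Anxa6 at 107.3 ± 2.42 FPKM and above Anxa5 at 52.2 ± 1.72 FPKM, and no neighbours overlapped. The order of the others was that of the sham cord, and Anxa1 stayed lowest at 3.36 ± 0.224 FPKM. The 8 genes together came to 271.1, 259.4 and 254.8 FPKM in sham and to 326.5, 346.5 and 347.8 FPKM in BCP. The group means were 261.8 ± 8.39 FPKM in sham and 340.3 ± 11.96 FPKM in BCP (SD, n = 3), and without Anxa3 they were 247.5 ± 6.43 FPKM and 268.0 ± 6.95 FPKM. The share of Anxa3 in the total was 5.45 ± 0.565% (SD, n = 3) in sham and 21.2 ± 2.74% (SD, n = 3) in BCP, while that of Anxa6 was 40.2% in sham and 31.5% in BCP.

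**Figure D4:**
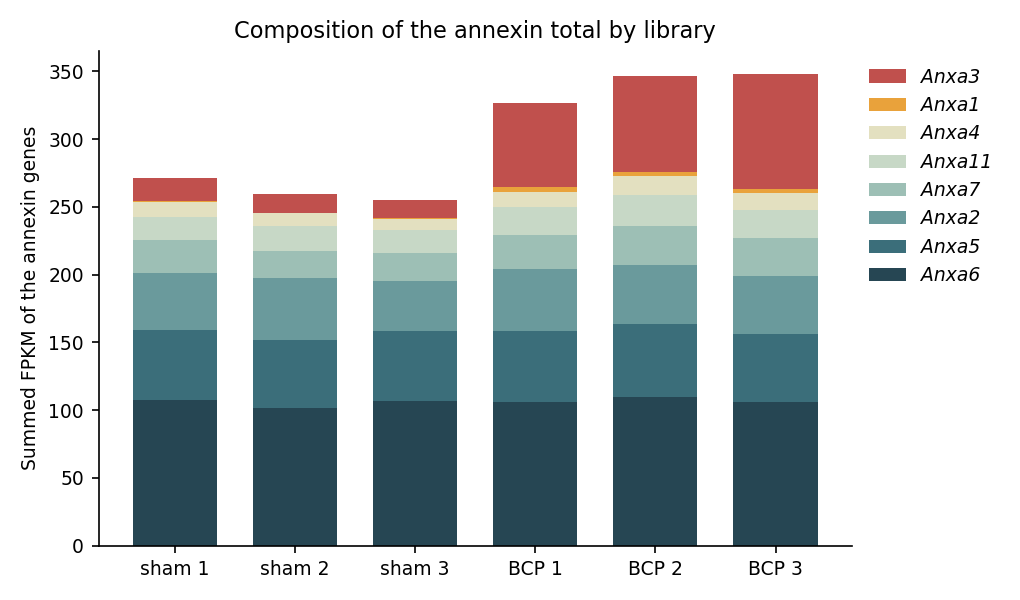
Summed FPKM of the 8 annexin genes in each library, split by gene. The sham libraries total 254.8 to 271.1 FPKM and the BCP libraries 326.5 to 347.8 FPKM, and the segment of Anxa3 is on average 5.45% of the total in sham and 21.2% in BCP.

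The remaining annexin genes of the table had too few counts to be tested. Anxa8 had 2, 1 and 10 counts in sham and 1, 7 and 4 in BCP. Anxa9 had 3, 2 and 2 counts in sham and 4, 1 and 0 in BCP. Anxa10 had 2 counts in all, both in BCP library 1, and Anxa13 had 3 in all. The 8 listed genes are thus the annexins of the table that passed the filter.

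Around the 7 listed genes other than Anxa3, 16 lncRNAs lay within 10 kb of the gene and 11 of them overlapped its span. Of these 7 were tested, none was called higher, beside 1.14% of all tested lncRNAs, and none lower, beside 0.074%. On the adjusted p alone, 1.57% of all tested lncRNAs were higher and 0.395% lower, and none of these 7 was among them. None had an unadjusted p under 0.05 in edgeR's quasi-likelihood test either. Near Anxa7, where 8 lncRNAs lay, NONRATT010248.2 was at 14.5, 11.4 and 10.3 CPM in sham and 4.69, 1.84 and 13.4 CPM in BCP, so that BCP library 3 lay within the sham range. The log2 fold change there was -0.85 with an adjusted p = 0.619. Near Anxa11, NONRATT011720.2 had 11, 6 and 60 counts in sham and 12, 11 and 13 in BCP, with sham library 3 apart from the rest. With this spread the log2 fold change was -0.90 with all libraries and 0.58 without sham library 3. The lncRNAs near Anxa4 (NONRATT021577.2) and Anxa6 (NONRATT005437.2) had log2 fold changes of 0.04 and 0.09.

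Ccdc69 lies 16855 bases from Anxa6, whose groups overlapped. It had 1, 4 and 2 counts in sham and 11, 37 and 23 in BCP, and it passed the low-count filter through its BCP libraries. Ybx1-ps3 near Anxa6 and Cfap70 near Anxa7 were higher by 0.51 and 0.47 on the log2 scale, with adjusted p-values of 0.0213 and 0.0267. Gmcl1, 4497 bases from Anxa4, had a log2 fold change of 0.01. These genes were also looked up after values had been seen.

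Proteins that act with annexins were then examined as a list of 40 genes, of which 39 were in the table and 29 were tested. Of the tested genes 7 (24.1%) were called higher, beside 6.35% of all tested genes, and none lower. On the adjusted p alone, 10 (34.5%) passed on the higher side, beside 15.8% of all tested genes, and 6 (20.7%) on the lower side, beside 12.1%. The median log2 fold change over the 29 genes was 0.10. The list was put together with earlier results of these data known, and its count describes these genes only. The part of the microglia and T cells, whose markers were higher in BCP, in the differences of these genes was not tested.

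Among the calcium-binding proteins that bind annexins, 3 of 7 were called higher, beside 6.35% of all tested genes. S100a4, known from motile and immune cells, was at 6.56, 6.43 and 5.68 CPM in sham and at 11.5, 16.0 and 18.9 CPM in BCP. Its log2 fold change was 1.32 ± 0.17 (SE) with an adjusted p = 7.34e-06 by edgeR's quasi-likelihood test. S100a6 was at 1.83, 1.47 and 0.811 CPM in sham and 3.13, 4.22 and 3.33 CPM in BCP, a log2 fold change of 1.39 ± 0.30 (SE) with an adjusted p = 0.00125. S100a11, a partner of Anxa1, was at 1.53, 1.54 and 1.69 CPM in sham and 2.54, 5.15 and 4.01 CPM in BCP, a log2 fold change of 1.31 ± 0.28 (SE) with an adjusted p = 0.00144. In all 3 genes the BCP libraries lay above the sham libraries, as they did in 21.7% of all tested genes. S100b, a protein of astrocytes and oligodendrocyte lineage cells, fell by 0.37 on the log2 scale with an adjusted p = 5.36e-05. S100a10, the partner of Anxa2, had a log2 fold change of 0.30 with a 95% interval of 0.05 to 0.54 and an adjusted p = 0.0674, and its groups overlapped. The partners Sri of Anxa7 (adjusted p = 0.103 by edgeR's quasi-likelihood test) and Pdcd6 of Anxa11 (adjusted p = 0.623) did not pass the test.

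Of the plasminogen system, for which the complex of Anxa2 and S100a10 is a cell surface receptor, 2 of 4 tested genes were called higher. The share over all tested genes was 6.35%. Plau, the urokinase-type activator, had 4, 10 and 5 counts in sham and 28, 26 and 38 in BCP, and a log2 fold change of 2.37 ± 0.39 (SE) with an adjusted p = 9.61e-05 by edgeR's quasi-likelihood test, and it passed the low-count filter through its BCP libraries. Without any filter its adjusted p was 2.9e-05. Its groups did not overlap, and its level was low in both. Plat, the tissue-type activator, had a log2 fold change of 0.12 with an adjusted p = 0.0841, and Plgrkt, a plasminogen receptor, one of 0.31 with an adjusted p = 0.285. The urokinase receptor Plaur, with 0, 2 and 0 counts in sham and 10, 5 and 9 in BCP, had too few counts to be tested.

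The formyl peptide receptors, through which secreted Anxa1 acts, could not be tested. Fpr2, Fpr-rs3, Fpr-rs4 and Fpr-rs6 had no count in any library. This allows a level of up to 0.200 to 0.255 CPM in a library (3 counts on its unscaled total over all genes, counting error only). Fpr1 had no count in sham and 2, 0 and 1 counts in BCP, and Fpr3 had 1, 3 and 3 counts in sham and 2, 1 and 1 in BCP. No difference of these receptors was detectable at this depth.

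Of the phospholipase and kinase partners, Pla2g4a, the cytosolic phospholipase A2 that releases arachidonic acid and that annexins inhibit, was called. It was at 12.96, 12.92 and 11.01 CPM in sham and 28.3, 30.3 and 31.3 CPM in BCP, a log2 fold change of 1.29 ± 0.10 (SE) with an adjusted p = 6.94e-09 by edgeR's quasi-likelihood test. Prkca, a protein kinase C bound by Anxa6, fell by 0.25 on the log2 scale with an adjusted p = 0.00456, and Rasa1, a Ras regulator that Anxa6 recruits, had a log2 fold change of 0.15 with an adjusted p = 0.0370. Leaving out a single library moved the adjusted p of Prkca to 0.0502 without sham library 3, and that of Rasa1 to between 0.0568 and 0.100 whichever library was left out.

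Among the proteins that expose or recognise phosphatidylserine, the lipid that Anxa5 binds, 1 of 10 was called higher, beside 6.35% of all tested genes. On the adjusted p alone, 2 were higher, beside 15.8% of all tested genes, and 3 lower, beside 12.1%. Axl, a receptor tyrosine kinase for the clearance of dying cells, was at 73.1, 75.9 and 52.6 CPM in sham and 226, 236 and 259 CPM in BCP. Its log2 fold change was 1.84 ± 0.16 (SE) with an adjusted p = 0.00147 by edgeR's quasi-likelihood test. Its relative Mertk rose by 0.54 on the log2 scale with an adjusted p = 1.26e-05, while Tyro3, the member of that receptor family typical of neurons, fell by 0.28 with an adjusted p = 0.00023. The bridging proteins Mfge8 and Gas6 fell by 0.26 and 0.19 on the log2 scale, with adjusted p-values of 0.00636 and 0.0118. Without BCP library 2 the adjusted p was 0.0512 for Mfge8 and 0.0729 for Gas6. For Gas6 it was also 0.0706 without sham library 2 and 0.0541 without BCP library 3.

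Of the membrane repair proteins, none of 5 tested was called, beside 6.35% called higher and 0.107% lower among all tested genes. Ahnak, a giant protein that Anxa2 and S100a10 recruit to the membrane, had a log2 fold change of 0.23 with an adjusted p = 0.0101 by edgeR's quasi-likelihood test. Dysf, or dysferlin, which works with Anxa1 and Anxa2 in muscle, had one of -0.30 with an adjusted p = 0.0116. Without sham library 2 the adjusted p was 0.0678 for Ahnak and 0.0868 for Dysf, and without BCP library 2 it was 0.0650 for Ahnak.

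**Figure D5:**
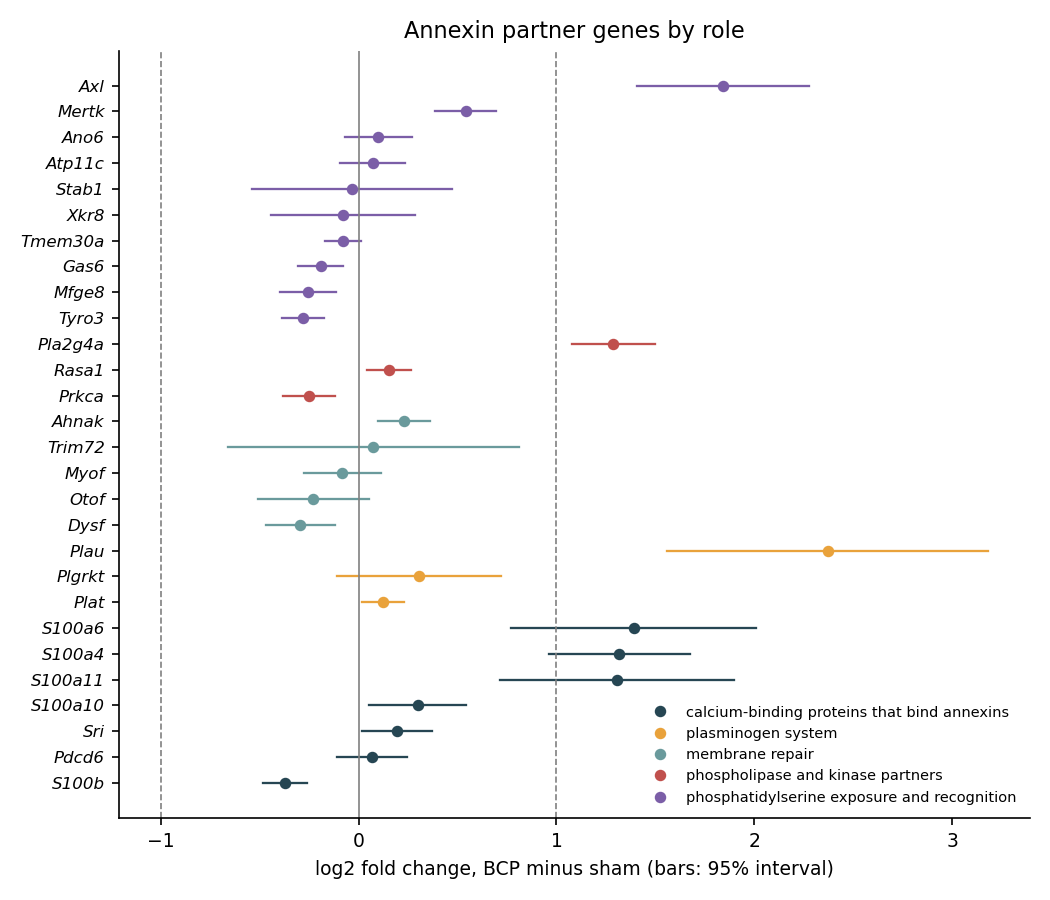
Log2 fold change (BCP minus sham) of the tested annexin partner genes by role, with bars for the 95% interval and dashed lines at the fold threshold of 1 in either direction. S100a4, S100a6, S100a11, Plau, Pla2g4a and Axl lie beyond the line on the higher side, and none lies beyond it on the lower side.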

How the data were processed

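RNA was sequenced from 3 sham and 3 BCP libraries, ribosome-depleted and strand-specific, of total RNA. After filtering with Seqtk, the authors aligned the reads to the rat build Rnor_6.0 (HISAT2 2.0.4) and ran StringTie 1.3.0, per the paper's methods and the submitters' processing notes. Raw counts per gene and per lncRNA transcript were deposited, with the authors' FPKM values beside them. The counting program, whether it used strand and how it handled multiply mapped reads are not given in the sources used here.

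Samples were grouped by their labels. Genes and lncRNAs were fitted separately with edgeR 4.0.16 in R 4.3.3 (TMM normalization, filter by expression, robust quasi-likelihood test on condition alone, Benjamini-Hochberg adjustment over all tested rows). CPM were computed on the library's total over the rows of its own table that passed the filter, after TMM scaling. SD are between libraries. The code was tested on simulated data. The depth of 11779485 or more gene counts leaves counting error large for genes as low as Anxa1.

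The members, lists, tests and the rule for naming genes (members, other annexins, listed partners past the adjusted p, lncRNAs within 10 kb and the 5 most similar genes) were chosen with earlier results of these data known. A partner gene that enters the list's counts is not reported here by itself. Alternatives were DESeq2 1.42.0, other scaling and filters, no fold threshold, a replicate block, gene-table library sizes, a distance of 50 kb and each library left out. Python 3.11.15 with matplotlib 3.10.9 drew the figures.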

Additional observations from a re-analysis of the deposited data

How the results depend on the processing

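The count of 2 annexin genes called higher was 2 under the other alternatives, except 1 with at least 10 counts in every library, where Anxa1 was not tested, and 5 with no fold threshold. With no fold threshold 6 partner genes were lower, against 0 otherwise. The count of 2 lncRNAs called near annexin genes was 1 with at least 10 counts in every library. With each library left out it was from 1 to 2 (1 without sham library 2, sham library 3 or BCP library 2). The lncRNA lost was NONRATT009768.2, which had 6 to 8 counts in the sham libraries. Both lncRNAs lie inside the span of Anxa3, which was put on the list for their differences. Their count is therefore a description, beside 1.14% of all tested lncRNAs called higher.

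The replicate numbers were shared by the groups, but samples with the same number did not deviate together (correlations of -0.105, 0.0439 and -0.0353), and sham libraries 1 and 3 correlated best with a BCP library of another number. With the replicate number as a block, 2 annexin genes, 7 partner genes and 1 lncRNA were called higher. The annexin genes include Anxa3 and the lncRNA, MSTRG.9517.1, lies inside its span, so these counts too are a description.

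Signs turned only in log2 fold changes near 0 or from few counts. With library size only these were Anxa5 (0.0206), Anxa6 (0.0295) and Stab1 (0.0073). With a library left out the ranges crossed 0 for Anxa2 (-0.0417 to 0.121), Anxa5 (-0.0386 to 0.0100), Anxa6 (-0.0384 to 0.0053), Trim72 (-0.124 to 0.205), Stab1 (-0.208 to 0.205), NONRATT011720.2 (-1.37 to 0.579), NONRATT021577.2 (-0.477 to 0.416), NONRATT005437.2 (-0.0662 to 0.301) and NONRATT010251.2 (-0.163 to 0.0497), and the cause was not tested. Of 95 alternative values of the annexin genes 89 kept their direction and their side of the thresholds for a call, as did 342 of 347 of the partners. That tally follows the joint thresholds, and the adjusted p alone crossed 0.05 for Anxa4, Anxa7 and Anxa11 without the libraries named beside their results. With 3 libraries a group and low counts, small differences of Anxa1, the receptors of Anxa1 and most lncRNAs are beyond the depth.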
